A study of Mus musculus with 12 samples.

Results

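The transition from the last day before birth to the day of birth was examined in mouse lung. The members were the lung arrays labelled E18.5 (embryonic day 18.5) and N0 (neonatal day 0), 4 of the 12 samples of the series, with 1 array for each stage and each mother. All pups were Abcb11+/-. They came either from a WT mother mated to an Abcb11-/- father or from an Abcb11-/- mother mated to a WT father, on a C57BL/6 background, so the controls carry the heterozygous allele too. Abcb11 encodes the bile salt export pump of the liver, and mothers without it are cholestatic. Newborn lungs were collected soon after birth. The label of each array names a mouse. The sources used here do not say for the arrays how many pups each stands for, or of which sex. Transcripts of both sexes were present on each of the 4 arrays, as given below. The other arrays of the series were 2 of lung at E17.5 and 6 of adult female liver. The 2 arrays at E17.5 entered the estimate of the spread and the choice of a probe set for each gene, and their values are given where stated.

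Before birth the air spaces are filled with fluid that the epithelium secretes. At birth the fluid is taken up through sodium channels, the lung is aerated, the oxygen tension rises, the placental supply of glucose ends, and glucocorticoids and catecholamines are high. Immediate-early genes are transcribed within minutes of a stimulus without new protein synthesis, and most of them encode transcription factors or inhibitors of growth factor signalling. Glycogen is stored in the fetal lung epithelium and is used up as surfactant lipids are made.

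Values are given as RMA values, that is, normalized array intensities on a log2 scale, so a difference of 1 is a 2-fold change. Where a pair of values is given for a stage, the first is that of the WT mother and the second that of the Abcb11-/- mother, and pairs of changes, medians and sums follow the same order. A change is the value at N0 minus the value at E18.5 with the same mother. Here the mother means the maternal genotype, since the labels name no individual mother. The lungs of the 2 stages were separate samples that share that genotype, and 1 mother was not followed across birth. No value at a single stage and mother has a replicate, and the 2 changes of a gene, 1 with each mother, are its only repeats. A linear model (limma) with terms for stage and mother was fitted over the 6 lung arrays. Its error term is how far the mothers disagree in their changes between stages. A gene that moved unequally with the mothers therefore has a higher p-value. The spread of each gene is also drawn towards one shared by all genes, so an SE is not the gene's own spread alone. The model called 0 of 17097 genes at an adjusted p under 0.05, a share called of 0%. At an unadjusted p under 0.05 there were 2098 genes, 888 of them higher at N0 and 1210 lower, and the lowest adjusted p was 0.063. When the model was fitted to the 4 arrays of E18.5 and N0 only, 24 genes were called higher and 11 lower. Leaving out either E17.5 array leaves the other alone at its stage, where it adds nothing to the estimate of the spread. That fit equals the one on 4 arrays and is no further result. At E17.5 the lung from the Abcb11-/- mother stood apart, with the hepatocyte transcript Alb at 13.01 against 9.05 with the WT mother, and with a summed intensity of skeletal muscle genes of 5062 against 290. What follows is therefore mostly a description of values. Whether the change from E18.5 to N0 differed between the mothers was not tested, since that interaction leaves no residual degrees of freedom among these 4 arrays.

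The labelled tissue was borne out by its markers. Sftpc, the surfactant protein made only by type II cells, lay between 13.35 and 13.39 on the 4 arrays, close to the brightest values measured. Ager and Hopx of type I cells lay between 12.06 and 12.85, and the club cell protein Scgb3a2 between 12.65 and 12.78. Nkx2-1, the defining transcription factor of lung epithelium, was dim on all 4 arrays (3.23 to 3.82). Xist, transcribed in females, was at 8.34 and 10.19 at E18.5, then at 8.95 and 9.63 at N0. The Y-linked Eif2s3y was at 7.79 and 6.37, then at 8.06 and 7.37, and the Y-linked Kdm5d at 6.37 and 5.16, then at 6.18 and 5.90. Female and male transcripts were thus both present on each array, as in a pool of pups of both sexes, but whether arrays were pools was not tested. The makeup of the arrays by sex was not equal, and its part in the results was not tested. Transcripts of neighbouring tissue were present as well, and they are given below beside the results with which they move.

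Among 7182 genes whose mean over the 4 arrays was at least 6, 38 (0.529%) were at least 2-fold higher at N0 with both mothers and 10 (0.139%) were at least 2-fold lower with both. These 48 genes are referred to as moving alike. The smallest changes inside the limit were those of Gata2 (1.10 and 1.00 with the WT and the Abcb11-/- mother) and, downwards, Epha7 (-1.34 and -1.03). Just outside were Ppp1r15a (0.98 and 1.66) and Spc25 (-1.48 and -0.99). Each of the 48 genes had an unadjusted p under 0.05 in the limma fit, and 15 of the 38 and 3 of the 10 had an adjusted p under 0.1. The genes were chosen by their changes on the same arrays, so these p-values follow in part from the choice and are no separate support. Over all 7182 genes, 68.2% had the same direction with both mothers, and the 2 changes had a Pearson r of 0.57 across genes, which share their arrays and are not independent replicates. In the plot of changes by mother, most of the genes that moved with 1 mother only lie to the left, on the side of lower values with the WT mother.

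**Figure D1:**
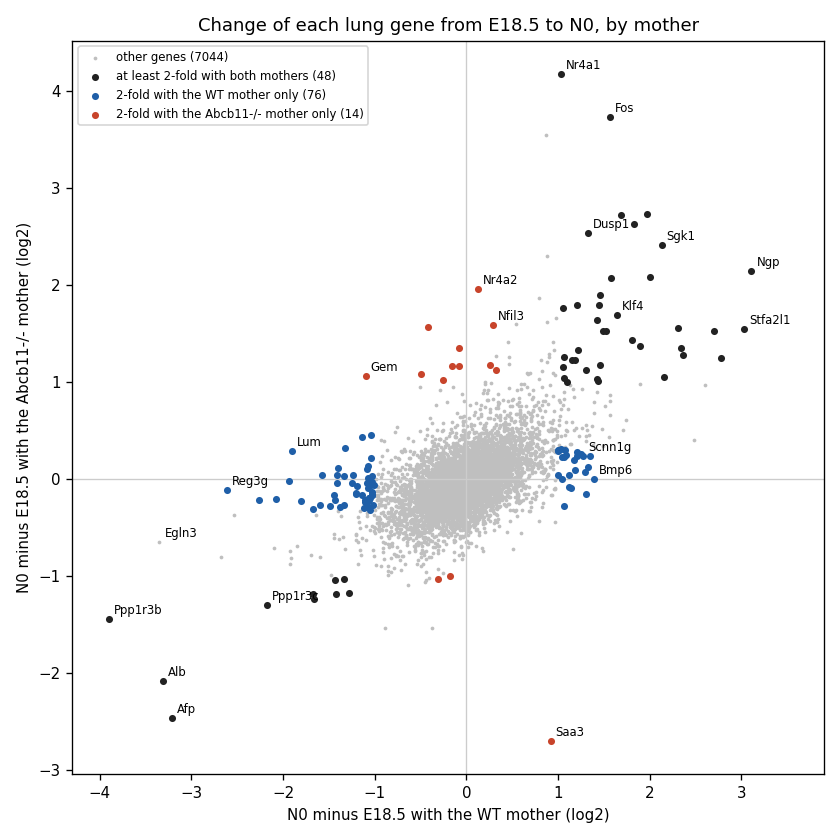
Each point is 1 of 7182 genes, placed by its log2 change from E18.5 to N0 with the WT mother (x axis) and with the Abcb11-/- mother (y axis). Black points are the 48 genes at least 2-fold changed in the same direction with both, blue points those with the WT mother only and red points those with the Abcb11-/- mother only. Gem meets both of the latter rules and is drawn in red. Nr4a1 and Fos lie far above the diagonal, and Ppp1r3b, Egln3, Alb and Afp are lowest on the x axis.

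Transcription factors and signalling inhibitors of the immediate-early class were among the genes that were higher at birth. Of the 38 genes, 8 belong to a list of 31 immediate-early genes, and 21 belong to none of the lists. Among the 7182 genes, 22 belong to the immediate-early list. Klf4, a zinc finger factor of epithelia and endothelium, was at 9.29 with the WT mother and 9.14 with the Abcb11-/- mother at E18.5 and at 10.93 and 10.83 at N0. Its changes of 1.64 and 1.69 differed by little, and its mean change was 1.67 ± 0.15 (SE, limma adjusted p = 0.064). Klf2, a factor that responds to blood flow in endothelium, was at 8.63 and 8.44 at E18.5, then at 10.08 and 10.34 at N0. Klf6, of the same family, was at 8.93 and 8.74 at E18.5, and its changes were 1.07 and 1.26. All 3 Kruppel-like factors were thus higher on both N0 arrays than on both E18.5 arrays by similar amounts with the 2 mothers.

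The AP-1 and nuclear receptor members behaved less alike. Fos, a subunit of the AP-1 transcription factor, was at 7.71 and 7.34 at E18.5, then at 9.28 and 11.07 at N0, which is 2.96-fold higher with the WT mother and 13.3-fold higher with the Abcb11-/- mother. Nr4a1, an orphan nuclear receptor, went from 6.83 to 7.86 with the WT mother and from 6.49 to 10.67 with the Abcb11-/- mother. Its N0 values lay further apart than its E18.5 and N0 values with the WT mother, and its limma adjusted p was 0.31. Dusp1, a phosphatase that switches off MAP kinases, was at 10.01 and 9.78 at E18.5, then at 11.34 and 12.32 at N0. Csrnp1, a nuclear protein rich in cysteine and serine, was at 6.33 and 6.19 and then at 8.01 and 8.92. Ccn1, a secreted matrix protein, was at 8.26 and 8.60 and then at 10.09 and 11.24. In each of these genes the newborn lung of the Abcb11-/- mother had the highest value of the 4 arrays.

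Of the 30 measured immediate-early genes, 14 were at least 1.5-fold higher with both mothers and 0 were lower, against 1.15% higher and 1.35% lower among all genes. In all 14, the change was larger with the Abcb11-/- mother. Among all genes that were 1.5-fold higher with both mothers, this held for 83 of 196. With the Abcb11-/- mother 21 members were at least 1.5-fold higher, and with the WT mother 14. The median change of the list was 0.42 with the WT mother and 1.27 with the Abcb11-/- mother, against -0.02 and -0.03 over all genes. Atf3, a stress-induced factor, had the largest mean change of the list (3.83 and 4.45 at E18.5, 6.48 and 8.64 at N0), but its mean was below 6 and it was not counted among the 38. Egr1, a zinc finger factor, was at 6.49 and 7.12 at E18.5, then at 7.36 and 10.67 at N0. Both are again highest in the newborn lung of the Abcb11-/- mother. Not every member was higher at birth. Ier3, an inhibitor of apoptosis, was at 9.41 and 9.70 and then at 9.31 and 9.37, and the growth arrest gene Gadd45g was at 8.09 and 8.08 and then at 7.29 and 7.62. Each of these statements about the mothers rests on 1 array per mother at N0.

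Sgk1, a kinase that is induced by glucocorticoids and raises the number of sodium channels at the cell surface, had the lowest adjusted p of the 38 genes. It was at 8.56 and 8.57 at E18.5, then at 10.69 and 10.99 at N0. The E18.5 values were nearly equal, and both N0 values lay more than 2 above them. The mean change was 2.28 ± 0.14 (SE), a 4.84-fold difference (limma adjusted p = 0.063, and 0.022 over the 4 arrays alone). Other glucocorticoid targets were higher too. Of 15 measured, 9 were at least 1.5-fold higher with both mothers and 0 were lower, against 1.15% higher and 1.35% lower among all genes. The median changes were 0.70 and 0.65. Besides Sgk1 and Dusp1 they included Errfi1, a feedback inhibitor of the EGF receptor (9.85 and 9.70, then 11.30 and 11.50). Cdkn1a, an inhibitor of cyclin-dependent kinases, was at 7.87 and 7.50 and then at 9.46 and 9.58. Pdk4, which keeps pyruvate from being oxidized, was at 7.02 and 6.63 and then at 8.45 and 8.27. Klf9, for which 1 of 5 probe sets was flat, was at 10.51 and 10.29 and then at 11.37 and 11.16. The change of Klf9 was 0.87 with either mother. Tsc22d3, which encodes the glucocorticoid-induced leucine zipper, was at 9.85 and 9.58 and then at 10.55 and 10.19. The classical target Fkbp5 had changes of only 0.38 and 0.44. Lcn2 was lower (8.85 and 9.98, then 8.54 and 8.95), as was the hypoxia-inducible factor subunit Hif3a (9.32 and 9.10, then 7.87 and 8.53). The glucocorticoid and the immediate-early lists share Dusp1, and several of the genes named here answer to more than 1 signal.

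Of 16 measured clock genes, 3 were at least 1.5-fold higher with both mothers, against 1.15% of all genes, and the median changes were -0.17 and 0.11. The 3 were Per1 (8.47 and 8.44, then 9.27 and 9.15), Cry2 (5.85 and 6.17, then 6.76 and 7.14) and Nr1d2 (7.61 and 8.10, then 8.67 and 8.93), which all encode repressors of the clock. Cirbp, a cold-inducible RNA-binding protein that is outside the lists, was at 7.21 and 7.75 at E18.5, then at 9.55 and 9.09 at N0. Rbm3, the related cold-inducible gene, went the other way (3.94 and 4.10, then 2.51 and 2.80), on a probe set that was dim on all 4 arrays. Rbm3 was chosen for comparison with Cirbp after the values were seen. Noct, a phosphatase whose mRNA follows the clock in many tissues, was at 5.76 and 6.33 and then at 7.25 and 7.85. Its changes of 1.49 and 1.53 were among the most even of the 38 genes.

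Transcripts of neutrophil granules were also higher. Ngp, the neutrophilic granule protein, had the largest change of all 38 genes when ranked by the smaller of the 2 changes. It was at 5.22 and 5.44 at E18.5, then at 8.32 and 7.59 at N0, 8.61-fold and 4.43-fold higher. S100a9, a subunit of the calcium-binding protein calprotectin, was at 8.02 and 8.53 and then at 10.72 and 10.06. S100a8, its partner, was at 8.54 and 8.94 and then at 10.90 and 10.21. Stfa2l1, a stefin of a family of near-identical copies that the probes may not separate, was at 7.34 and 8.08 and then at 10.37 and 9.63. All 4 were highest in the newborn lung of the WT mother. Of 11 measured neutrophil genes, 7 were at least 1.5-fold higher with both mothers, against 1.15% of all genes. In all 7 the change was larger with the WT mother, against 113 of 196 among all genes 1.5-fold higher with both. Only 3 of the 11 reached a mean of 6. Mmp8, the neutrophil collagenase, was at 4.42 and 4.94 and then at 7.59 and 6.10. Mpo and Elane, which mark immature granulocytes, stayed between 3.10 and 3.56 on all 4 arrays. The median changes of the list were 2.01 and 1.00. In whole lung, more cells of a type and more RNA per cell cannot be told apart. Macrophage genes showed much smaller shifts (1 of 13 higher with both mothers, medians 0.25 and 0.24), and that 1 was Chil3, a chitinase-like protein of macrophages and neutrophils (4.97 and 5.80, then 7.75 and 7.05). Cytokine and chemokine genes had medians of 0.11 and -0.02 with 0 of 22 higher or lower in both, and Il6, Tnf and Cxcl1 stayed below 4 on every array. Interferon-stimulated genes had medians of 0.27 and 0.37, and Rsad2 was the 1 of 12 that was higher with both mothers (8.61 and 8.38, then 9.74 and 9.35).

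Other genes among the 12 with the largest changes are known in injury or in growth. Tnfrsf12a, the receptor of the cytokine TWEAK, was at 5.20 and 4.94 at E18.5, then at 7.17 and 7.68 at N0. Pxdc1 was at 6.21 and 5.91 and then at 8.21 and 8.00, with changes of 2.00 and 2.09. H1f2, a linker histone gene with close paralogs, was at 8.25 and 8.87 and then at 10.56 and 10.43. In these 3 genes both N0 values lay above both E18.5 values. Genes of vessels were among the remaining members. S1pr1, the endothelial receptor for sphingosine 1-phosphate, was at 7.58 and 7.35 and then at 8.63 and 8.51. Smad6, an inhibitor of BMP signalling, was at 7.32 and 7.74 and then at 8.51 and 8.97. Tmem100, an endothelial target of BMP signalling, was at 7.62 and 7.61 and then at 9.79 and 8.67. Gata2, an endothelial and haematopoietic factor, was at 7.45 and 6.99 and then at 8.55 and 7.99. The list of 18 endothelial markers as a whole had small shifts, with medians of 0.13 and 0.25 and 1 member higher in both, Edn1, the vasoconstrictor endothelin 1 (6.30 and 7.98, then 7.32 and 8.71). For Edn1 the difference between the mothers was larger than that between the stages.

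**Figure D2:**
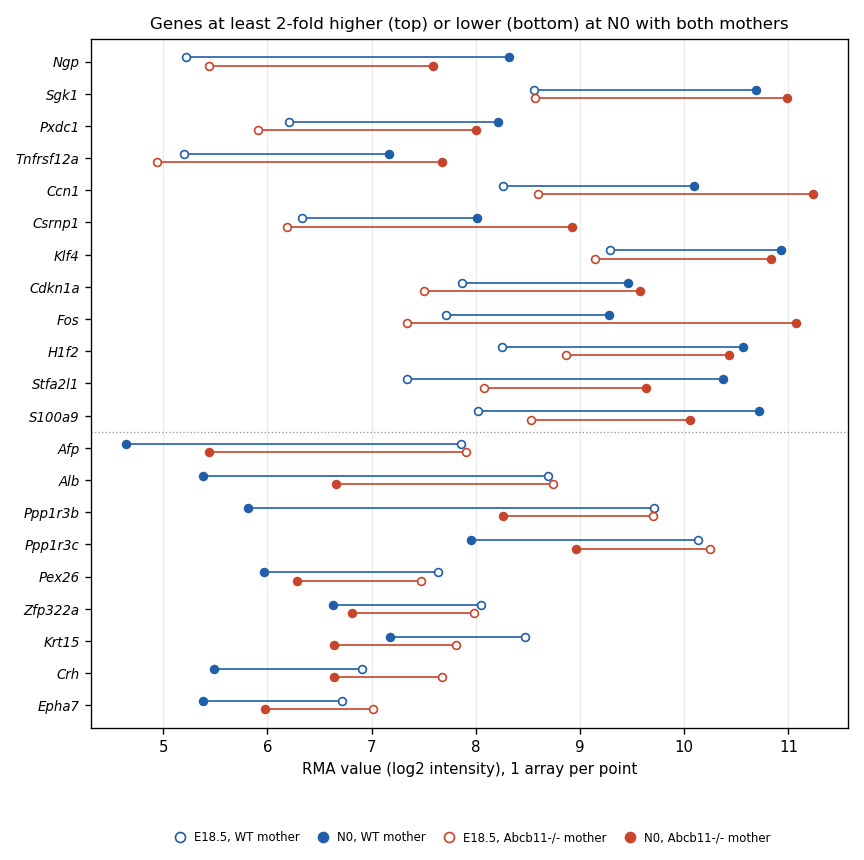
RMA values (log2) on the 4 arrays of the 12 named genes that were higher (above the dotted line) and the 9 named genes that were lower (below it) at N0 with both mothers. Open circles are E18.5, filled circles N0, blue the WT mother and red the Abcb11-/- mother, with 1 array per circle and no error bar because no array is repeated. Fos, Ccn1 and Csrnp1 have longer red lines, and all 9 lower genes have longer blue lines.

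Where a gene was at least 2-fold lower with both mothers, its change was larger with the WT mother in all 10 cases, whereas 22 of the 38 higher genes had the larger change with the Abcb11-/- mother. Over all 17097 genes, the change was larger in size with the WT mother in 9761. Apart from the transcript 9130015G15Rik the 10 genes were Afp, Alb, Ppp1r3b, Ppp1r3c, Pex26, Zfp322a, Krt15, Crh and Epha7. Crh, corticotropin-releasing hormone, a peptide made transiently by the fetal lung, was at 6.91 and 7.68 at E18.5, then at 5.49 and 6.64 at N0. At E17.5 it had been at 9.41 and 9.74, so that its values were ordered by stage with either mother. Pex26, a membrane protein of peroxisomes, was at 7.64 and 7.47 and then at 5.97 and 6.28. Zfp322a was at 8.05 and 7.98 and then at 6.63 and 6.81, and Epha7, a receptor for ephrins, was at 6.72 and 7.01 and then at 5.38 and 5.98. The limma adjusted p of these 4 genes lay between 0.08 and 0.18.

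Afp and Alb, plasma proteins of the fetal liver, had the largest mean differences of the 10, although Ppp1r3b differed more with the WT mother. Afp was at 7.86 and 7.91 at E18.5, then at 4.64 and 5.44 at N0. Only 1 of its 5 probe sets was bright enough to be counted here, and the others did not all show the same direction. Alb was at 8.69 and 8.74 and then at 5.38 and 6.66. The other hepatocyte markers were dim at both stages except Trf, which lung cells make too (11.07 and 11.04, then 10.85 and 11.40). Of 12 measured hepatocyte genes, 6 were at least 1.5-fold lower with both mothers, against 1.35% of all genes. Besides Afp and Alb they were Ttr (5.73 and 5.75, then 3.30 and 4.32), Fgb, Apoa1 and Fgg, with none of these 4 above 6 on any of the 4 arrays. The medians were -0.81 and -0.90, and the summed intensity of the list was 3036 and 3016 at E18.5 and 2065 and 3007 at N0, most of it from Trf. Apob and Ambp lay between 2.91 and 3.32 on all 4 arrays. The part of adherent or circulating liver material in these values was not tested.

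Krt15, a keratin of basal epithelial cells, was at 8.47 and 7.81 at E18.5, then at 7.18 and 6.64 at N0. Beside it a group of keratins and cornified envelope genes was present at E18.5 and low or near the floor of the array at N0. Krt4, a keratin of oesophageal and other moist stratified epithelium, was at 8.28 and 7.60 and then at 3.45 and 3.42. This was a 28.5-fold and an 18.2-fold difference, the largest mean difference of the genes at least 2-fold lower with both mothers whatever their brightness. Krt13, its partner, was at 7.05 and 6.21 and then at 2.82 and 3.45, and Psca had changes of -1.64 and -1.80 and N0 values of 3.36 and 3.40. A list of 20 genes of stratified squamous epithelium was drawn up after these values were seen, and it is a description only. Of 19 measured, 9 were at least 1.5-fold lower with both mothers, against 1.35% of all genes, and the medians were -1.04 and -0.88. Only 3 reached a mean of 6, and the basal factor Trp63 lay between 3.08 and 4.14 on all 4 arrays. The summed intensity of the list was 1632 and 1366 at E18.5 against 1001 and 867 at N0. Their part in the value of Krt15 was not tested.

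Regulators of glycogen storage were among the genes that were lower. Ppp1r3b and Ppp1r3c encode subunits that bring protein phosphatase 1 to glycogen and so activate glycogen synthase. Ppp1r3b was at 9.71 and 9.70 at E18.5, then at 5.81 and 8.26 at N0, which is 14.9-fold lower with the WT mother and 2.71-fold lower with the Abcb11-/- mother. Ppp1r3c was at 10.13 and 10.25 and then at 7.95 and 8.96, and its 2 probe sets had the same direction. For both genes the E18.5 values of the mothers were nearly equal and the N0 values were not. Of 16 measured glycogen genes, 7 were at least 1.5-fold lower at N0 with the WT mother and 2 with the Abcb11-/- mother, both of them Ppp1r3 subunits, against 6.46% and 3.64% of all genes. The medians were -0.50 and -0.16. Stbd1, which tethers glycogen to membranes, was at 9.59 and 9.58 and then at 8.19 and 9.24. The synthase gene Gys1 was at 6.81 and 6.90 and then at 6.04 and 6.43, and phosphoglucomutase 1 (Pgm1) at 8.72 and 8.60 and then at 7.92 and 8.22. In 13 of the 16 genes the change was larger in size with the WT mother, against 9761 of 17097 among all genes.

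Hypoxia-inducible and glycolysis genes had a similar shape. Of 32 measured, 3 were at least 1.5-fold lower with both mothers and 2 were higher, against 1.35% and 1.15% of all genes. With the WT mother 14 were lower, and with the Abcb11-/- mother 3, where 6.46% and 3.64% of all genes were. The medians were -0.46 and -0.11. In 26 of the 32 the change was larger in size with the WT mother, against 9761 of 17097 among all genes. Egln3, a prolyl hydroxylase that marks hypoxia-inducible factor for destruction and is itself one of its targets, was at 8.38 and 8.34 at E18.5, then at 5.03 and 7.68 at N0. Ankrd37, another target, was at 7.40 and 7.78 and then at 4.71 and 6.97. The liver-type phosphofructokinase Pfkl was at 8.02 and 7.93 and then at 6.42 and 7.13. These were the 3 that were lower with both mothers, each by less with the Abcb11-/- mother. Slc2a1, the main glucose carrier of fetal tissue, went from 9.09 to 7.68 with the WT mother, a 2.66-fold difference, and ended at 9.04 with the Abcb11-/- mother, a change of 0.04. Hk2, hexokinase 2, was at 8.64 and 8.58 and then at 7.15 and 8.31. Ndrg1, a hypoxia marker, was at 9.28 and 8.64 and then at 7.70 and 8.68. On the N0 array of the WT mother each of these 6 genes had its lowest value of the 4.

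Other enzymes of glycolysis were bright and differed by various amounts. Eno1b, an enolase gene with a near-identical copy, was at 9.65 and 9.67 and then at 8.28 and 9.29. Smaller differences with the WT mother were those of 3 further enzymes. Tpi1 was at 9.99 and 10.13 and then at 8.81 and 9.74, Ldha at 10.62 and 10.74 and then at 9.64 and 10.52, and Gapdh at 11.97 and 11.95 and then at 11.22 and 11.74. The exceptions ran the other way. Slc2a3, a high-affinity glucose carrier, was at 5.98 and 5.99 at E18.5, then at 7.55 and 6.80 at N0, although 1 of its 4 probe sets was flat. Adm, the vasodilator adrenomedullin, was at 6.46 and 6.41 and then at 7.06 and 7.39. Vegfa was at 9.84 and 9.71 and then at 9.44 and 9.64, less than 1.5-fold apart. The limma adjusted p of the genes in this list was 0.19 or higher. Respiratory chain genes, by contrast with glycolysis genes, were flat, with 0 of 20 members 1.5-fold apart with either mother and medians of -0.11 and -0.15.

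**Figure D3:**
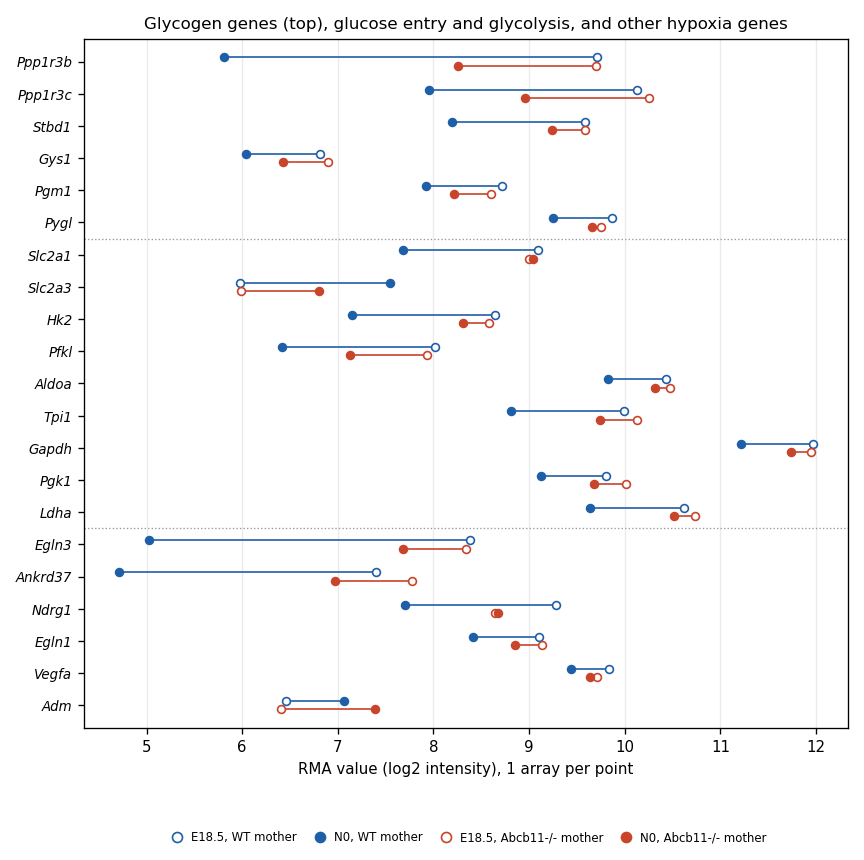
RMA values (log2) on the 4 arrays of glycogen genes (top block), glucose carriers and glycolysis enzymes (middle block) and other hypoxia-inducible genes (bottom block), chosen from the lists after their values were seen. Open circles are E18.5, filled circles N0, blue the WT mother and red the Abcb11-/- mother, with 1 array per circle. Most filled blue circles lie left of the filled red ones, while the open circles nearly coincide for most genes.

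The genes that moved with 1 mother only were mostly those of the WT mother. At least 2-fold lower with the WT mother, and with the Abcb11-/- mother not lower or less than 25% apart (higher over lower intensity), were 52 genes (0.724%). At least 2-fold higher with the WT mother only were 25 (0.348%), 11 (0.153%) were higher with the Abcb11-/- mother only, and 3 (0.0418%) were lower with it only. With each array centred on its median, 12 of the 25 and 34 of the 52 stayed in their class. In all, 113 genes (1.57%) were at least 2-fold higher and 107 (1.49%) lower with the WT mother, against 72 (1%) and 19 (0.265%) with the Abcb11-/- mother. Of the 107, 10 were also 2-fold lower with the Abcb11-/- mother, 45 lay between these limits, and 92 were lower by any amount. Among the 52 genes the mothers differed by a median of 0.13 (log2, regardless of sign) at E18.5 and of 1.04 at N0, a consequence in part of how the genes were chosen.

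Of the 8 named genes that were lower with the WT mother only, several are made by fibroblasts. Lum, lumican, a small proteoglycan that orders collagen fibrils, was at 7.39 and 7.55 at E18.5, then at 5.49 and 7.84 at N0. Gdf10, a BMP-like factor, was at 6.64 and 6.60 and then at 4.55 and 6.40, and Adam12, a metalloproteinase of mesenchyme, was at 6.86 and 7.05 and then at 5.26 and 6.78. Unc5c, a netrin receptor, was at 7.34 and 7.53 and then at 5.39 and 7.51. In each the N0 array of the WT mother stood apart from the other 3. Dcn, decorin, was a further member (8.77 and 8.63, then 7.37 and 8.75). The main collagens did not share this, since Col1a1 was at 10.59 and 10.52 and then at 10.08 and 10.53, and Col3a1 at 12.87 and 12.79 and then at 12.63 and 12.93. Over 23 measured genes of collagens and elastic fibres, 4 were 1.5-fold lower with the WT mother and 1 with the Abcb11-/- mother, against 6.46% and 3.64% of all genes, so the latter is near the background. The medians were -0.14 and 0.08. That 1 was Fbn2, a fetal microfibril protein, which was lower with both (8.79 and 8.85, then 8.13 and 8.17).

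Reg3g, an antibacterial lectin of airway epithelium, was at 6.72 and 6.82 at E18.5, then at 4.11 and 6.71 at N0, the largest difference in this group. Pgam2, the muscle form of phosphoglycerate mutase, was at 7.47 and 7.05 and then at 5.21 and 6.84, Prcd at 7.65 and 7.54 and then at 5.97 and 7.23, and Zbtb8b at 7.29 and 6.21 and then at 5.49 and 5.98. For Zbtb8b the mothers were already apart at E18.5, as they were by over 1.5-fold in 5 of the 52 genes. Scd1, the stearoyl-CoA desaturase of the lipogenic epithelium, was at 11.69 and 11.86 and then at 10.45 and 11.90. Sterol and fatty acid synthesis genes as a list had medians of -0.22 and -0.11, with 0 of 21 changed 1.5-fold with both mothers. Heart muscle genes moved with this group. Tnni3 of cardiac troponin was at 6.69 and 6.65 and then at 5.25 and 6.49, and Myh7 at 8.19 and 8.14 and then at 6.99 and 8.00. Of 12 measured heart muscle genes, 8 were at least 1.5-fold lower with the WT mother and 2 with the Abcb11-/- mother, against 6.46% and 3.64% of all genes, with medians of -0.97 and -0.17. Their summed intensity was 2938 and 3084 at E18.5 and 1734 and 2595 at N0. Heart muscle sheaths the pulmonary veins of the mouse, and atrial tissue can stay on a dissected lung. The part of either in the genes lower with the WT mother was not tested. Skeletal muscle genes were mostly dim, with medians of -0.59 and -0.52, and smooth muscle genes had medians of -0.14 and 0.19.

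The 25 genes higher with the WT mother only included 1 sodium channel subunit gene, Scnn1g, and 3 genes of fat oxidation. Scnn1g, the gamma subunit of the epithelial sodium channel that takes up lung fluid, was at 8.74 and 8.71 at E18.5, then at 10.01 and 8.96 at N0. The other subunit genes were not among the 25, since Scnn1b had a mean below 6 and Scnn1a differed by less than 2-fold. The beta subunit gene Scnn1b was at 5.62 and 5.76 and then at 6.80 and 5.73, and the alpha subunit gene Scnn1a at 7.68 and 7.37 and then at 8.46 and 7.54. All 3 subunits were thus at least 1.5-fold higher with the WT mother and less than 25% apart with the Abcb11-/- mother, while Sgk1, their regulator, was higher with both. Of 15 measured genes of lung fluid handling, 5 were at least 1.5-fold higher with the WT mother and 1 with the Abcb11-/- mother, against 5.03% and 2.72% of all genes. The medians were 0.37 and 0.03. The water channel gene Aqp5 was at 9.50 and 9.51 and then at 10.43 and 10.09. Cftr, the chloride channel of fetal fluid secretion, was lower (5.98 and 6.94, then 5.53 and 5.88), with a mean change of -0.75 ± 0.18 (SE, limma adjusted p = 0.26).

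Cpt1a, which admits long-chain fatty acids to mitochondria, was at 8.05 and 7.95 and then at 9.22 and 8.15. Slc25a20, the carnitine carrier of the inner membrane, was at 7.84 and 7.98 and then at 8.84 and 8.02. Angptl4, an inhibitor of lipoprotein lipase, was at 5.95 and 6.14 and then at 8.43 and 6.54. These 3 are targets of the PPAR receptors and were each highest in the newborn lung of the WT mother. Acot2, a thioesterase with a near-identical neighbour in Acot1, was at 8.46 and 8.47 and then at 9.52 and 8.19. Of 23 measured genes of fat oxidation and PPAR targets, 9 were at least 1.5-fold higher with the WT mother and 2 with the Abcb11-/- mother, against 5.03% and 2.72% of all genes. The 2 were Pdk4 and Txnip, which were higher with both. The medians of the whole list were 0.12 and -0.02. The enzymes of the oxidation spiral itself were near level, as Acadvl (7.98 and 7.87, then 7.92 and 7.81) and Hadhb (8.86 and 8.78, then 8.98 and 8.90) show.

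The remaining named genes of this group have various functions. Bmp6, a bone morphogenetic protein, was at 6.53 and 6.41 at E18.5, then at 7.93 and 6.41 at N0. Hpgd, which inactivates prostaglandins, was at 7.92 and 7.72 and then at 9.23 and 7.57. Tfcp2l1, a transcription factor of ducts and airways, was at 7.14 and 7.37 and then at 8.49 and 7.61. In these 3 the values of the mothers were close to each other at E18.5 and apart at N0. Vsir, an immune checkpoint receptor, Tmem43, Tppp3 of ciliated cells and Nceh1, a cholesteryl ester hydrolase, had changes of 1.21 to 1.33 with the WT mother and of 0.07 to 0.26 with the Abcb11-/- mother. Tek, the angiopoietin receptor of endothelium, was at 8.34 and 8.37 and then at 9.34 and 8.67. Prostaglandin genes as a list had medians of 0.06 and 0.05. Ptgs2 was the 1 of 14 that was higher with both (3.33 and 4.32, then 4.06 and 5.94), and Ptger3, a receptor for prostaglandin E2, the 1 that was lower (6.19 and 6.81, then 4.81 and 5.84).

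The genes that were higher with the Abcb11-/- mother only included more immediate-early genes. Nr4a2, the nuclear receptor next of kin to Nr4a1, was at 5.79 and 5.66 at E18.5, then at 5.93 and 7.61 at N0. Nfil3, a repressor in the clock and in immune cells, was at 7.84 and 7.62 and then at 8.12 and 9.21. Btg2, an inhibitor of proliferation, was at 9.71 and 9.70 and then at 9.63 and 10.87, and Fosl2, a relative of Fos, was at 8.86 and 8.35 and then at 9.11 and 9.53. In Nr4a2, Nfil3 and Btg2 the newborn lung of the Abcb11-/- mother stood apart from the other arrays. For Fosl2 the N0 values of the mothers were closer than the E18.5 values, and its other probe set was near flat. Ankrd1, a muscle ankyrin repeat protein that responds to stretch and to YAP, was at 6.05 and 5.65 and then at 5.63 and 7.23. Acoxl, an acyl-CoA oxidase-like gene, was at 6.80 and 6.99 and then at 6.72 and 8.34, Nipal1 at 6.51 and 6.30 and then at 6.35 and 7.47, and the potassium channel subunit gene Kcne4 at 5.31 and 6.41 and then at 5.63 and 7.54. Lower with this mother only were Lcn2, Mterf4 (6.38 and 6.34, then 6.20 and 5.33) and Saa3. Lcn2 and Saa3 are acute-phase genes, and both were higher at E18.5 with the Abcb11-/- mother than on any other array, Saa3 at 9.37.

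**Figure D4:**
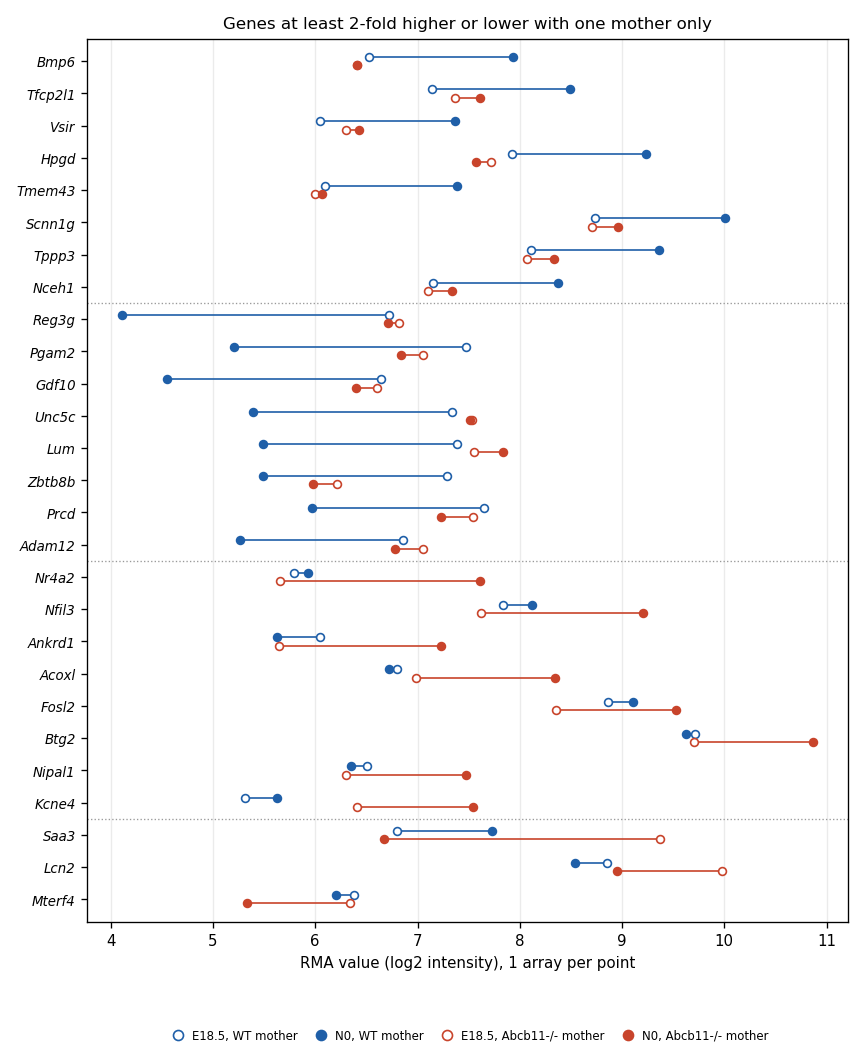
RMA values (log2) on the 4 arrays of the named genes that were at least 2-fold changed with 1 mother only. From the top, the blocks show genes higher with the WT mother, lower with the WT mother, higher with the Abcb11-/- mother and lower with the Abcb11-/- mother, with symbols as in the other plots of array values. In each block the line of 1 colour is short by the rule of choice.

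Only 2 genes (0.0278%) were at least 1.5-fold changed in opposite directions. Saa3, an acute-phase serum amyloid, was at 6.80 and 9.37 at E18.5, then at 7.73 and 6.67 at N0, with changes of 0.92 and -2.70. Gem, a small GTPase of the immediate-early type, was at 7.47 and 6.52 and then at 6.37 and 7.58, with changes of -1.10 and 1.06. In both genes the mothers were apart at E18.5 as well as at N0.

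Cell cycle genes were lower in the newborn lung with either mother. Of 35 measured, 9 were at least 1.5-fold lower with both mothers and 0 were higher, against 1.35% lower and 1.15% higher among all genes. The medians were -0.57 and -0.58, and 34 had a mean change below 0. Aurka, a mitotic kinase, was at 5.39 and 5.45 at E18.5, then at 3.94 and 4.47 at N0. Rrm2, a subunit of ribonucleotide reductase, was at 6.81 and 7.36 and then at 5.63 and 6.48. Ccna2, cyclin A2, was at 8.27 and 8.45 and then at 7.37 and 7.63, and Mki67, the proliferation marker, at 8.37 and 8.66 and then at 7.68 and 8.11. In these 4 genes every N0 value lay below every E18.5 value. At E17.5 they had been higher still, with Mki67 at 9.69 and 9.22. The limma adjusted p of the list was 0.23 or higher, and Ccnd1 (8.55 and 8.76, then 8.67 and 9.09) was the exception in direction.

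Genes of the gas exchange epithelium were near level. Among genes of surfactant and of type II cells, 1 of 13 measured was 1.5-fold higher with both mothers and 0 were lower, and the medians were -0.03 and -0.02. Over all genes, 1.15% were 1.5-fold higher with both mothers and 1.35% lower, which applies to the lists that follow too. Sftpa1 was at 11.99 and 12.20 and then at 12.16 and 12.35, Abca3 at 10.61 and 10.61 and then at 10.53 and 10.59, and Lpcat1 at 11.10 and 11.08 and then at 11.01 and 11.05. The 1 exception was Chia1, an acidic chitinase, at 6.93 and 6.51 and then at 8.39 and 7.70. Sftpd, a collectin of the air space lining, was 0.64 higher on the log2 scale with the WT mother and 0.09 lower with the Abcb11-/- mother. None of 11 type I cell genes was 1.5-fold apart with both mothers (medians -0.10 and -0.09). Aqp5, a member of that list, fell just short, at 1.91-fold and 1.49-fold higher, while 7 of the 11 had a mean change below 0. The airway markers showed little more. Scgb1a1, the main secretory protein of club cells, was at 12.01 and 11.85 and then at 12.70 and 12.52, club and secretory cell genes had medians of 0.24 and 0.14, and ciliated cell genes of -0.04 and -0.06. Signals and transcription factors of development had medians of -0.22 and -0.17. Of 36 measured, the 2 that were higher with both were Foxf1, a factor of the lung mesenchyme and endothelium (9.89 and 9.97, then 10.55 and 10.61), and the dim Pdgfra. The 1 that was lower with both was Gli1, a target of hedgehog signalling (4.85 and 4.82, then 4.03 and 4.23). Hbb-y, an embryonic beta globin, was at 5.81 and 7.54 and then at 4.29 and 6.08, with a mean change of -1.49 ± 0.15 (SE, limma adjusted p = 0.078), while erythroid genes as a list had medians of 0.01 and 0.04. Among stress genes, Hspb1 (9.98 and 9.83, then 11.05 and 10.73) and Hspa1b, which has a near-identical copy, were the 2 of 9 heat shock genes higher with both (medians -0.12 and -0.08). The glutathione synthesis gene Gclc was the 1 of 19 antioxidant genes (8.59 and 8.78, then 9.32 and 9.70, medians 0.25 and 0.12). Of 17 genes of endoplasmic reticulum and amino acid stress, Ppp1r15a was higher with both and Psat1 lower (medians -0.04 and 0.02).

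**Figure D5:**
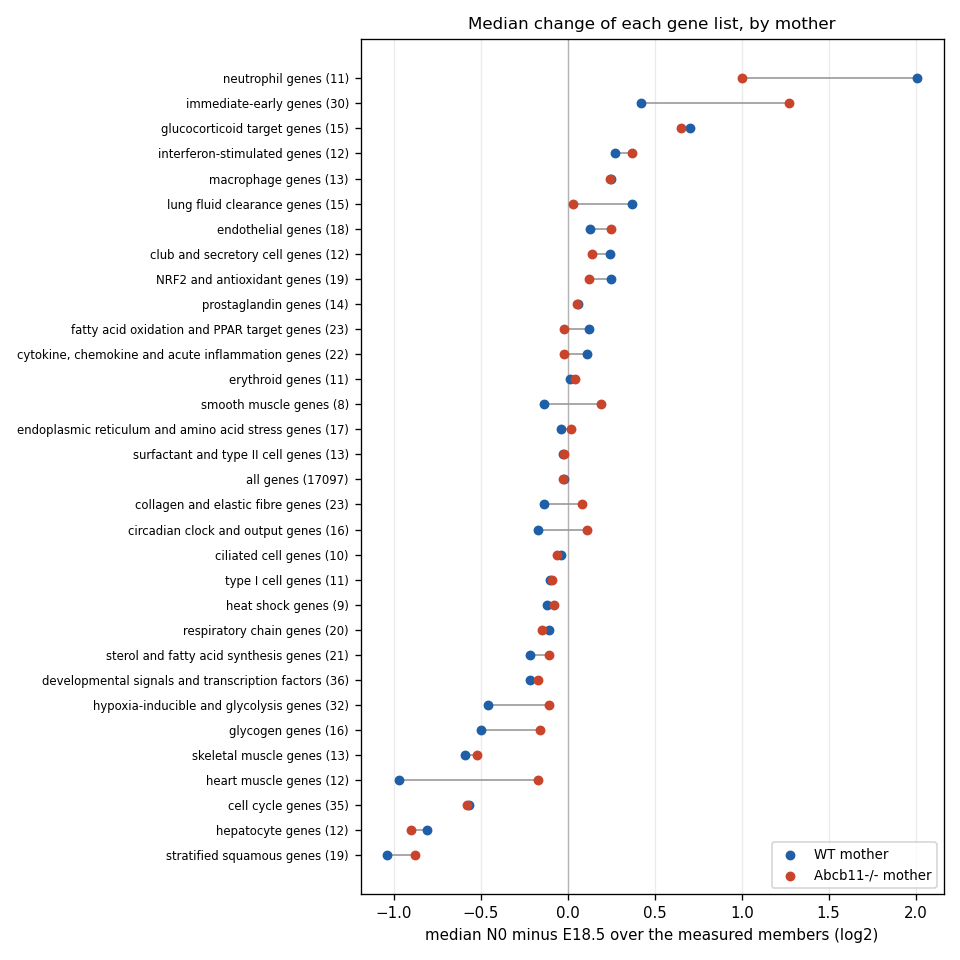
Median log2 change from E18.5 to N0 over the measured members of each gene list, in blue with the WT mother and in red with the Abcb11-/- mother, with the number of measured members in brackets. A grey line joins the 2 medians, and no error is shown because each median comes from 2 arrays. Neutrophil, immediate-early and glucocorticoid genes lie furthest right, and immediate-early, neutrophil and heart muscle genes have the longest grey lines.

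A further set of genes was too dim on average to be counted among the 48 but was at least 2-fold apart with both mothers. There were 22 such genes higher and 24 lower among 9915 with a mean below 6, and those named here were chosen after their values were seen. Fam107a, an actin-bundling protein induced by glucocorticoids, was at 3.55 and 3.52 at E18.5, then at 7.24 and 6.35 at N0 (limma adjusted p = 0.063). Dusp8, a phosphatase of stress kinases, was at 4.01 and 3.86 and then at 6.13 and 6.68, and Nts, the peptide neurotensin, at 4.25 and 3.49 and then at 6.44 and 6.00. Ppbp, a platelet chemokine, was at 4.69 and 4.59 and then at 6.84 and 6.46, and the platelet integrin gene Itga2b at 4.22 and 3.96 and then at 5.71 and 5.11. In these 5 every N0 value lay above every E18.5 value. Other probe sets did not all share the change: the lowest mean change over the 3 of Fam107a was 0.33, and over the 3 of Dusp8 it was -0.02. Apold1, a gene of activated endothelium, was at 4.04 and 4.67 and then at 5.69 and 7.83.

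The promoters of the genes that moved alike were searched for motifs of factors that act in these responses. RefSeq promoter windows (250 bases before the start and 50 after it, build GRCm38.p6) were at hand for 32 of the 38 higher genes and 7 of the 10 lower ones. The cyclic AMP response element TGACGTCA, read on both strands, was in 4.35% of 46 windows of the higher genes, those of Dusp1 and Errfi1, and in 1.79% of all 32851 windows. The AP-1 site TGANTCA was in 2.17% of the windows of higher genes and 7.81% of all. The E-box CACGTG, to which clock factors and others bind, was in 10.9% against 7.15%, and the hypoxia response core ACGTG, which lies inside the E-box too, in 26.1% against 19.6%. The CArG box was in none of the windows of these genes and in 1.63% of all. Of the 8 windows of lower genes, 1 held an E-box, that of Ppp1r3c. These counts are small, a match of letters is not a bound site, and the absence of a match says only that the letters are not in this window.

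The bases before the start are printed for 4 genes that carry the main results and hold a motif, namely a signalling inhibitor and a receptor inhibitor with the cyclic AMP element, a Kruppel-like factor and a glycogen regulator with an E-box. Each run is given 5′ to 3′ on the strand of the gene, and capitals mark only the motif named for that gene. The Dusp1 run also holds an E-box, which is left in lower case. The Dusp1 window is chr17:26508473-26508722 on the minus strand, and its element ends 135 bases before the start. The Errfi1 window is chr4:150854820-150855069 on the plus strand, with the element 43 bases before the start. The Klf4 window is chr4:55532476-55532725 on the minus strand, with an E-box 176 bases before the start, and the Ppp1r3c window is chr19:36736605-36736854 on the minus strand, with an E-box 98 bases before the start.
Dusp1: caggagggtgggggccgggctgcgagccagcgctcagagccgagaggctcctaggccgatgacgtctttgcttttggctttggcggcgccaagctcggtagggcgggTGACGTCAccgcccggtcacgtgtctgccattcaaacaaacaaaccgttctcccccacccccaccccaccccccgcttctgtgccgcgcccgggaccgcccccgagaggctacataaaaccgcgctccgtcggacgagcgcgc
Errfi1: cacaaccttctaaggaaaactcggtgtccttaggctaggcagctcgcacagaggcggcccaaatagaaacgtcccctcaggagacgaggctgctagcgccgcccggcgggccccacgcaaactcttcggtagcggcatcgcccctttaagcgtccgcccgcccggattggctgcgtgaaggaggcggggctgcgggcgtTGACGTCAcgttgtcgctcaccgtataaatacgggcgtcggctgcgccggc
Klf4: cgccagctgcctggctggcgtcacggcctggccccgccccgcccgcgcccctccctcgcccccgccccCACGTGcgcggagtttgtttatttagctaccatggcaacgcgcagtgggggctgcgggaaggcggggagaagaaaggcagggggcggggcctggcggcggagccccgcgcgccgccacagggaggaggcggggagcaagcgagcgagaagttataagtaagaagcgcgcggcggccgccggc
Ppp1r3c: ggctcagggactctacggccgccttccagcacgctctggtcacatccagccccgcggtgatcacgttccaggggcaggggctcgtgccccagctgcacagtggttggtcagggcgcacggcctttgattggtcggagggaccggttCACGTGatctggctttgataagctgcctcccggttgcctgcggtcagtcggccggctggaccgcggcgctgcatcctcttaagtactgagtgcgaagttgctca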

How the data were processed

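RNA of mouse lung was hybridised to Affymetrix HT MG430 PM plate arrays. The authors deposited log2 values normalised by RMA in Partek 6.5, both named in the submitters' processing notes. No scanner values were used, so background correction and summarisation were kept as deposited, and the precision is limited by the number of arrays. Of 45037 probe sets, 28898 carried 1 gene symbol in the platform annotation, 551 several and 15588 none, and those with 1 were used. Each of 17097 genes was represented by the probe set with the highest mean over the 6 lung arrays.

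Groups were taken from the sample labels. The labels name no litter, and arrays of the 2 maternal genotypes come from different litters. A difference between stages or mothers therefore cannot be told apart from one between litters. The p-values measure only the spread between these arrays. With 1 array per stage and mother, that spread is the disagreement of the mothers in their changes between stages, not a spread between replicates. The eBayes step of limma draws it, gene by gene, towards a value shared by all genes. limma 3.58.1 in R 4.3.3 was fitted to the 6 lung arrays with stage and mother as terms, which leaves few residual degrees of freedom, and p-values were adjusted by Benjamini-Hochberg over all genes. The fit was tested on simulated data. Counts by fold used Python 3.11.15 with pandas 2.3.3, a mean of at least 6, a 2-fold threshold, a limit of 25% for the other mother and, for lists and opposite directions, 1.5-fold. Genes were named by rule: up to 12 each way that moved alike, ranked by the smaller change, 8 each way for each mother, up to 6 per list by mean change, genes named in the study and those moving in opposite directions. Others named in the text were chosen after their values were seen. The members and lists were chosen with earlier results of these data known. Alternatives covered probe sets, scaling, filters, fold thresholds, the model and leaving out each array.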

Additional observations from a re-analysis of the deposited data

Results flagged for a closer look

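Gem and Saa3 moved in opposite directions with the 2 mothers. The change of Gem from E18.5 to N0 was -1.10 with the WT mother and 1.06 with the Abcb11-/- mother. The change of Saa3 was 0.92 with the WT mother and -2.70 with the Abcb11-/- mother. Each change comes from 1 array per stage, and the difference between the mothers was not tested.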

How the results depend on the processing

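No paired analysis was possible because the lung labels carry no replicate numbers by which to pair arrays. The mother was a term of the model, which compares the stages within each maternal genotype, and the counts without it are given below. Every comparison of the mothers rests on single arrays. Median centring moved the median change of all genes to 0.05 and 0.07 with the WT and the Abcb11-/- mother.

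The limma counts depended on the setting. Against 0 genes, 12 were called higher and 2 lower with the mean of all probe sets, 13 and 5 among genes with a mean of at least 6, 62 and 25 with a trended and robust prior, 24 and 11 with 4 arrays, 14 and 4 without the mother term, and 0 and 0 with quantile normalization or median centring. Leaving out 1 array gave 0 to 24 higher and 0 to 11 lower. Without either E17.5 array the fit is the same as with 4 arrays, since the array left at that stage is fitted exactly. Without an E18.5 or an N0 array the other of that stage stands alone, so those counts are not given singly. The methods' t-test called 0 after Benjamini-Hochberg, with 597 higher and 836 lower unadjusted.

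Genes moving alike numbered 60 higher and 34 lower without the filter, 130 and 78 at 1.5-fold, and 7 and 2 at 3-fold, and 5 were lower at a mean of at least 7. With the WT mother only, 73 were higher and 111 lower without the filter, 12 and 25 at a mean of at least 7, and 15 were higher with the mean of all probe sets and 50 when up to 1.5-fold was allowed with the other mother. With the Abcb11-/- mother only, 18 were higher and 22 lower without the filter, 5 were higher at a mean of at least 7, 7 were higher with the mean of all probe sets, and 7 were lower when up to 1.5-fold was allowed. Membership depended on the scaling: with median centring 24 genes were higher with the WT mother only, of which 12 were among the 25, 43 were lower, 34 of them among the 52, and 15 were higher with the Abcb11-/- mother only, 8 of them among the 11. Opposite directions were found in 4 genes with median centring, 16 without the filter, 1 at a mean of at least 7 and 43 when 25% each way was enough.

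Of the list members at least 1.5-fold changed with both mothers, median centring left 1 type I cell gene, 2 fluid clearance genes, 2 endothelial, 1 cytokine, 2 interferon and 1 erythroid gene higher, and 5 cell cycle, 0 collagen, 0 endoplasmic reticulum stress, 0 skeletal muscle and 0 developmental genes lower. Quantile normalization gave 2 endothelial, 1 cytokine and 2 interferon genes higher and 0 skeletal muscle and 0 developmental genes lower. The mean of all probe sets gave 1 hypoxia, 2 endothelial and 0 prostaglandin genes higher and 0 heart muscle and 0 prostaglandin genes lower. Among members with a mean of at least 6, 3 neutrophil, 1 developmental and 0 prostaglandin genes were higher, and 3 cell cycle, 2 hepatocyte, 0 erythroid, 0 heart muscle, 0 skeletal muscle, 0 developmental and 0 prostaglandin genes were lower. The cause of these shifts was not tested. Of the 50 changes of single genes recomputed, 0 turned direction, and those of Nr4a2 (1.03) and Fosl2 (0.69) moved with the mean of all probe sets.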
